A study of Arabidopsis thaliana with 6 samples.

Results

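Shoots of wild-type Arabidopsis thaliana, accession Col-0, were described by the order of their transcript signals on 3 of the 6 arrays of the series. The 3 arrays were chosen by title: they carry the wild-type seedlings given estradiol, biological replicates 1, 2 and 3. The study looked for early targets of the transcription factor EBE in seedlings of an estradiol-inducible line, EBE-XVE, and these wild-type shoots were its controls. Plants grew on MS agar at 22 °C, with 16 h of light at 140 µmol per square metre and second alternating with 8 h of dark. At 3 weeks they were moved to shaken liquid MS medium for 16 h and then received 2 µM β-estradiol for 45 min before shoots were harvested. The wild-type seedlings were therefore not untreated, and no array without liquid culture or estradiol was analysed here.

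Each array reported 22746 probe sets after 64 manufacturer's controls were left out. Within each array the probe sets were ranked by deposited log2 signal and given a percentile rank, in which 100 is the highest. A gene belongs to the top set if its percentile rank is above 95 on all 3 arrays. A rank orders the brightness of probe sets and not amounts of transcript, since probe sets differ in how strongly they bind. Whether plastid, mitochondrial and nuclear transcripts were labelled equally well was not tested. Ranks of genes from different genomes are therefore not read as relative expression. In a whole shoot, fewer cells of a type and less RNA per cell cannot be told apart.

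Shoots of this age are mostly green leaf. Their chloroplasts carry thylakoid membranes with the photosystems, the cytochrome b6f complex and ATP synthase, and a stroma with the enzymes of the Calvin cycle, which fixes carbon through Rubisco. The subunits of these complexes are encoded partly in the nucleus and partly in the plastid's own genome, where many genes are transcribed together in clusters. Leaves are known for very abundant transcripts of nuclear light-harvesting and Calvin cycle genes.

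The 3 arrays did not stand at equal distances from each other. Replicates 2 and 3 had a Spearman correlation of 0.997 across probe sets and replicate 1 had 0.957 and 0.956 with them, as a description over probe sets that share an array. The SD of the log2 difference was 0.20 between replicates 2 and 3, against 0.87 and 0.88 between replicate 1 and each of them. Replicate 1 was also brighter, with a median log2 signal of 5.47 against 4.44 and 4.50, and a top 5% that began at 10.86 against 10.27 and 10.32. No arrays held identical values. Ranks are unaffected by a uniform shift of an array but not by the different order in replicate 1, so values are given array by array, and counts also without replicate 1 where it changed them.

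The top set held 948 probe sets, 4.17% of those ranked, and each single array held 1138 in its top 5%. Replicates 2 and 3 shared 1087 of their 1138, whereas replicate 1 shared 971 with replicate 2 and 966 with replicate 3. Of the 948, 345 were paired with 1 gene symbol, 57 with several and 546 were unnamed here. The probe sets with 1 symbol gave 344 loci, of 13286 loci measured (2.59%), and 1 more probe set, for AT1G67865, matched no locus of the reference table. Unnamed probe sets were in the top set more often (6.25%), as were those with several symbols (11.3%), so the named genes below are a part of the list. Within the set the named ones were about as bright as the rest, with a median mean log2 signal of 11.73 (quartiles 11.15 and 12.48) over the 345 with 1 symbol and 11.72 (quartiles 11.16 and 12.48) over the other 603. Of the 344 loci, 324 were nuclear and 20 plastid-encoded.

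The named genes with the highest mean rank were AT3G60245 and AT1G09310, which the tables used here give by ID only. AT3G60245 had log2 signals of 14.28, 14.11 and 14.19 in replicates 1, 2 and 3, and was the 8th, 4th and 3rd probe set of its arrays. AT1G09310 had 14.40, 14.10 and 14.16 and ranks of 6, 5 and 4. Next came atpB and atpE, plastid genes for the beta and epsilon subunits of the chloroplast ATP synthase. The atpB signal was 14.23, 14.01 and 14.03, and that of atpE 14.01, 13.87 and 14.04. Neither gene left the first 23 ranks on any array.

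**Figure D1:**
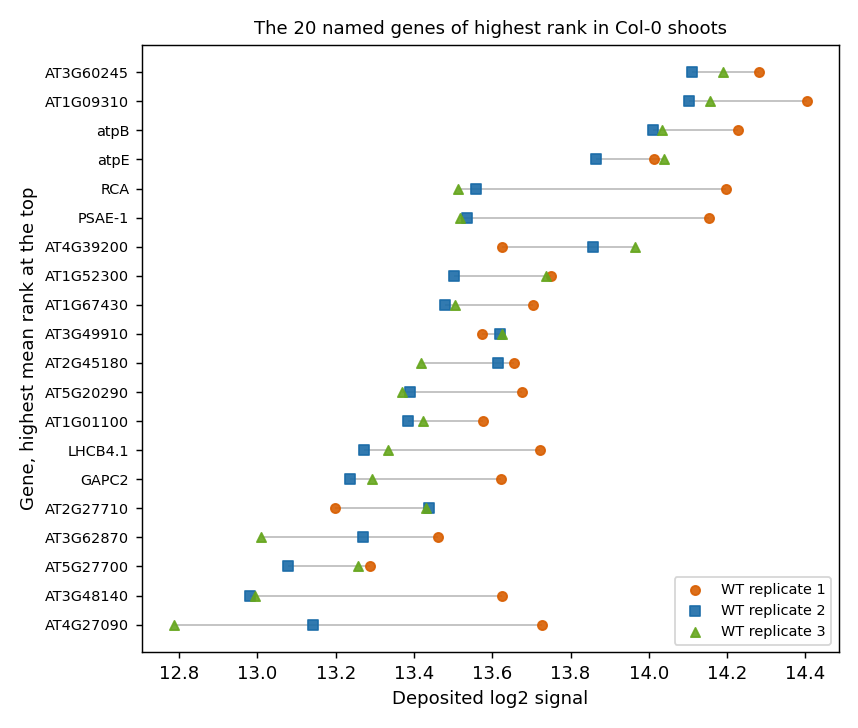
Deposited log2 signal (horizontal axis) of the 20 named genes with the highest mean rank (vertical axis), with 1 symbol per WT replicate and a grey line over their range. AT3G60245 and AT1G09310 lie above 14.1 on all arrays, and replicate 1 is the brightest array for most genes, but not for AT4G39200, AT3G49910, AT2G27710 or atpE.

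RCA, which encodes Rubisco activase, the protein that frees Rubisco of inhibiting sugar phosphates, was the highest nuclear gene with a symbol. Its log2 signal was 14.20, 13.56 and 13.51, at ranks 10, 28 and 30. PSAE-1, a stromal subunit of photosystem I, followed with 14.15, 13.54 and 13.52 at ranks 14, 29 and 29. LHCB4.1, the antenna protein CP29 of photosystem II, had 13.72, 13.27 and 13.33. GAPC2, the cytosolic glyceraldehyde-3-phosphate dehydrogenase of glycolysis and a common reference gene, had 13.62, 13.24 and 13.29 and held ranks 64, 64 and 57. For these 4 nuclear genes replicate 1 was the brightest array, yet the rank moved by at most 20 places among 22746.

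The other 12 of the 20 highest genes have only a locus ID in the tables used here. AT4G39200 had log2 signals of 13.62, 13.86 and 13.97, AT1G52300 had 13.75, 13.50 and 13.74, and AT1G67430 had 13.71, 13.48 and 13.50. The remaining 9, AT3G49910, AT2G45180, AT5G20290, AT1G01100, AT2G27710, AT3G62870, AT5G27700, AT3G48140 and AT4G27090, ranked between 23 and 137 on the 3 arrays. The widest range of ranks within this group belonged to AT2G27710, at 131, 37 and 38, and AT4G27090, at 45, 78 and 137.

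A total of 70 nuclear top-set genes carried a symbol (62) or a descriptive synonym (8), and they were sorted by role after their ranks were known. The other 254 nuclear loci of the set had an ID alone. Nuclear genes outside the top set were not sorted in this way, so the sizes of the role groups have no background. Among the 70 were 7 photosystem and light-harvesting genes, 7 of thylakoid structure and electron transfer, 6 of chlorophyll synthesis and 4 of the Calvin cycle and photorespiration.

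The 7 photosystem and light-harvesting genes had the highest median percentile rank of the role groups, 99.3. Besides PSAE-1 and LHCB4.1 they were LHCB4.2, a further CP29 gene (13.50, 12.52 and 12.51), PSAN, the lumenal subunit N of photosystem I (13.16, 12.53 and 12.32), and 3 genes of photosystem II. Of these, PSBY had 13.19, 12.67 and 12.66, PSBW 12.46, 12.32 and 12.30, and PSB27, an assembly and repair factor, 12.63, 12.11 and 11.92. All 7 were brightest in replicate 1 on the log2 scale and above the 98th percentile on every array. From a list of 43 nuclear photosystem and antenna genes, 7 had a named probe set and 6 of them were in the top set, beside 2.45% of all nuclear loci. The exception was LHCB4.3, a CP29 isoform, with log2 signals of 7.75, 5.55 and 5.48 and percentile ranks of 71.3, 57.6 and 56.9.

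Among genes of thylakoid structure and electron transfer, AT4G01150 (CURT1A, which bends thylakoid membranes at grana margins) had the highest signal, with 13.41, 12.97 and 13.07. ATPC1, the gamma subunit of chloroplast ATP synthase, had 13.25, 12.39 and 12.48, and ATHM2, a plastid thioredoxin, 12.91, 12.02 and 11.94. CaS, a thylakoid calcium-sensing protein, had 12.24, 11.41 and 11.41. AT1G52220 (CURT1C) had 11.82, 11.15 and 11.26, TROL, which tethers ferredoxin-NADP reductase to thylakoids, 11.79, 10.59 and 10.62, and AT5G58330, a NADP-dependent malate dehydrogenase, 11.05, 10.53 and 10.72. The 7 genes lay throughout the top set, at percentile ranks between 95.6 and 99.6.

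Chlorophyll synthesis was represented from an early to a late step. HEMB1, which joins aminolevulinic acid units, had 11.09, 10.45 and 10.49. CHLM, the magnesium protoporphyrin methyltransferase, had 11.62, 11.03 and 11.08, and PORB, a light-dependent protochlorophyllide reductase, had 11.74, 11.51 and 11.39. AT1G74470, geranylgeranyl reductase, which makes the phytol tail, was the brightest of the group, with 13.26, 12.25 and 12.13. LIL3:1 and LIL3:2, light-harvesting-like proteins that hold that reductase in the membrane, had 11.96, 11.77 and 11.63, and 10.98, 10.80 and 10.83. CHLM also had the steadiest signal of all named top-set genes after quantile normalization (SD 0.0081 log2, n = 3), at ranks 679, 686 and 684.

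All 3 genes measured of a list of 20 Calvin cycle genes were in the top set, beside 2.45% of all nuclear loci and 4.23% of those with a symbol. Besides RCA they were PRK, phosphoribulokinase, which remakes the CO2 acceptor (12.42, 11.63 and 11.48), and SBPASE, sedoheptulose-bisphosphatase (12.07, 11.27 and 11.29). Of 13 listed photorespiration genes 4 were measured and 3 were in the top set, beside the same 2.45% of all nuclear loci. These were HPR, the peroxisomal hydroxypyruvate reductase (11.91, 11.14 and 11.11), AT1G32470 (12.50, 11.99 and 11.93) and AT1G11860 (11.86, 11.32 and 11.12). The fourth, AT1G80380, stood just below, at percentile ranks of 92.1, 92.0 and 90.8. These shares rest on few genes, because only 47 of the 292 loci on all 27 lists had a named probe set.

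Sugar and organic acid metabolism held 7 genes, led by GAPC2. TPI, triosephosphate isomerase, had log2 signals of 13.04, 12.39 and 12.43, and cICDH, the cytosolic isocitrate dehydrogenase, 13.09, 12.10 and 12.23. ACLA-1, a subunit of ATP citrate lyase, MAB1, the beta subunit of mitochondrial pyruvate dehydrogenase E1, and PMM, phosphomannomutase of the ascorbate pathway, lay between 10.46 and 11.66 on all arrays. FDH, the mitochondrial formate dehydrogenase AT5G14780, stood out by its spread. Its log2 signal was 13.87 in replicate 1 against 11.88 and 11.94 in replicates 2 and 3, and its rank 30 against 375 and 369. CYTC-1, cytochrome c, had 12.96, 12.41 and 12.37, while FRO1, a subunit of mitochondrial complex I, and MPPBETA, a subunit of the mitochondrial processing peptidase, lay between 11.13 and 12.14. SAMDC, of polyamine synthesis, had percentile ranks of 98.9, 98.5 and 98.5, ahead of SIR, sulfite reductase, and OTC, of arginine synthesis, with log2 signals between 10.50 and 11.44.

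Redox and detoxification genes numbered 7. The brightest was PRXR1, a peroxidase, with 13.48, 12.80 and 12.95. GSTU20, a tau-class glutathione transferase, differed from the others of its group in being dimmest in replicate 1, with 12.31 against 12.53 and 12.63. GRXC2, a glutaredoxin, had 12.66, 11.79 and 11.93, and MT1C, a metallothionein, 12.08, 11.49 and 11.43. GSTL3, PRXIIF (a mitochondrial peroxiredoxin) and CYP71B26 (a cytochrome P450) were in the lower part of the top set, between 10.27 and 11.57.

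The remaining roles held 3 to 6 genes each. Protein turnover and folding was led by APA1, an aspartic protease (13.26, 12.05 and 11.95), and UBC28, a ubiquitin-conjugating enzyme (12.71, 11.43 and 11.58), followed by the plastid chaperonin Cpn60beta2 and the plastid protease subunit CLPP4. Secreted or stress-related proteins were led by ECS1 (13.18, 12.01 and 11.82) and the dehydrin AT1G54410 (12.69, 12.16 and 12.12), followed by the defensin-like LCR68 and LCR69, AT2G44060 (LEA26) and SRC2. Genes of the cytoskeleton, wall and growth were TUA6, an alpha-tubulin (12.24, 11.52 and 11.46), SKU5, EXGT-A3, WLIM2b and SPR1. RNA, chromatin and translation genes were led by PGY1, a ribosomal protein gene needed for leaf patterning (12.31, 12.24 and 12.28), with RBP45B, histone HTB4, EIF4A-2 and NRPB12 below it. Transport was represented by SWEET11, a sucrose exporter of phloem loading (12.06, 10.998 and 11.15), and the vacuolar proton pump genes AT3G58730 (VHA-D) and AT4G02620 (VHA-F). CCL, CP5 and the beta-glucosidase BGLU44 were left in no group.

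The plastid-encoded genes were the largest class that could be followed in full, with 69 measured. Of these, 20 were in the top set (29.0%), beside 2.59% of all named loci. They were in the top 5% of replicates 2 and 3 more often, 38 (55.1%) and 39 (56.5%) of 69, than in that of replicate 1, with 20 (29.0%), beside 3.23%, 3.24% and 3.31% of named loci in the top 5% of replicates 1, 2 and 3. The median percentile rank of the class was 84.2 in replicate 1 and 96.2 and 95.9 in replicates 2 and 3. In replicate 1, 65 of the 69 ranked below both other arrays, whereas replicates 2 and 3 lay a median of 0.299 points apart and never more than 5.71.

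**Figure D2:**
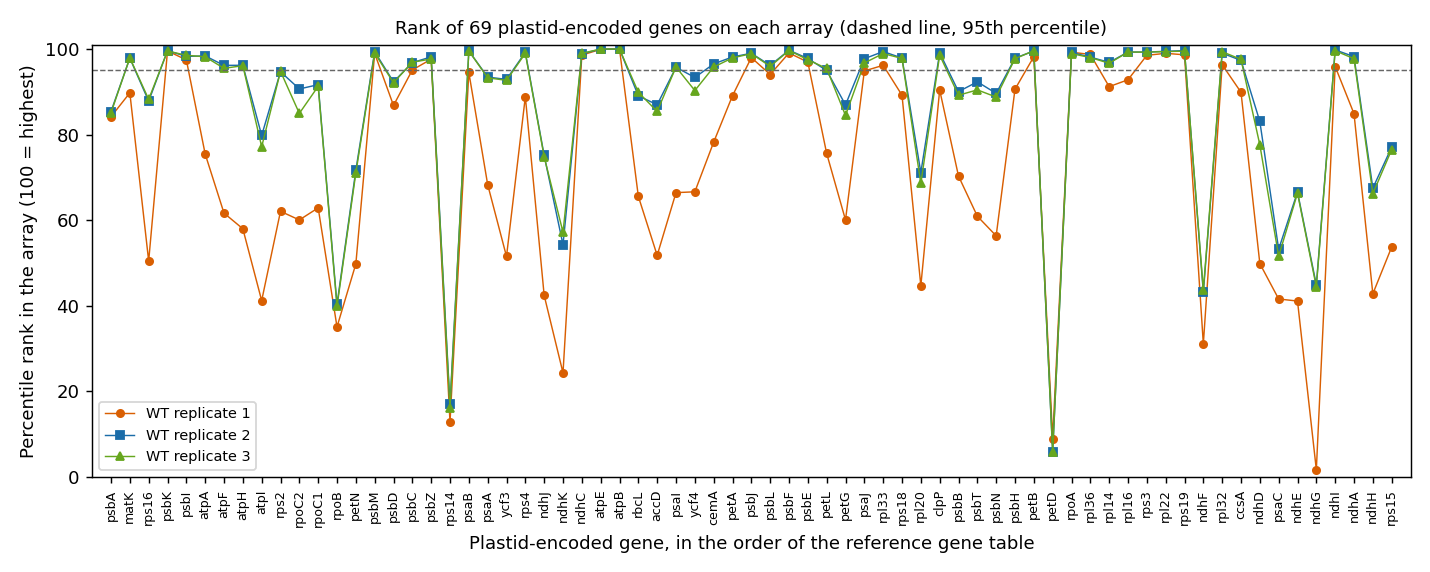
Percentile rank (vertical axis, 100 is highest) of 69 plastid-encoded genes on each WT array, in the gene order of the reference table (horizontal axis), with the 95th percentile as a dashed line. Replicates 2 and 3 lie close together, at most 5.71 points apart, replicate 1 lies below them at 65 genes, and rps14 and petD are low on all 3 arrays.

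The plastid groups are small, so their counts in the top set are listed beside the 29.0% of all plastid genes. No difference between groups is read from them. Photosystem II contributed 8 of 15, ribosomal proteins 6 of 15, ATP synthase 2 of 6, the NADH dehydrogenase-like complex 2 of 10, RNA polymerase 1 of 4 and cytochrome b6f 1 of 6. None of 5 photosystem I genes and none of 8 other genes did. Most of these counts were limited by replicate 1. With replicates 2 and 3 alone, the share of all plastid genes was 55.1%. Beside it, photosystem II contributed 10 of 15, ribosomal proteins 10 of 15, ATP synthase 5 of 6 and the NADH dehydrogenase-like complex 3 of 10. RNA polymerase stayed at 1 of 4, while cytochrome b6f had 2 of 6, photosystem I 3 of 5 and the others 4 of 8. The 3 photosystem I genes were psaB, psaJ and psaI. Of these psaB, for a reaction centre protein, had percentile ranks of 94.5, 99.53 and 99.53, psaJ 94.8, 97.7 and 96.7, and psaI 66.4, 95.7 and 95.8. The 4 others were clpP, for a protease subunit, matK, for an intron maturase, ccsA, for cytochrome c assembly, and cemA, of the inner envelope. The 8 photosystem II genes were psbK, psbF, psbM, psbJ, psbI, psbZ, psbE and psbC. Of these psbK, a small core subunit, had log2 signals of 13.28, 13.03 and 12.88 and psbF, a cytochrome b559 subunit, 12.87, 13.18 and 13.07. The first was the brighter in replicate 1 and the second in replicates 2 and 3. The gene psbA, for the D1 reaction centre protein, was lower and steady, with percentile ranks of 84.2, 85.4 and 85.1. The Rubisco large subunit gene rbcL had log2 signals of 7.23, 9.02 and 9.20 and percentile ranks of 65.5, 89.0 and 89.9. Like all ranks here, those of psbA and rbcL order probe set signals and not amounts of transcript.

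A further 18 plastid genes were in the top 5% of replicates 2 and 3 but not of replicate 1. They included 3 ATP synthase genes of the cluster that holds most of the plastid-encoded ATP synthase genes. Of these, atpH, for the membrane ring subunit, had log2 signals of 6.49 in replicate 1 against 10.69 and 10.70. The percentile ranks of atpF were 61.6, 96.2 and 95.5, and those of atpA, the alpha subunit, 75.4, 98.4 and 98.2. These neighbours in the gene order were thus low together in replicate 1, as was atpI beside them (41.2, 79.8 and 77.1), while atpB and atpE, which lie elsewhere in that order, were among the highest probe sets of all 3 arrays. In all, 21 of the 69 plastid genes were at least 25 points lower in replicate 1, beside 0.459% of all named loci with such a drop.

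Gene order was also looked at. Of the 19 plastid top-set genes with a measured neighbour, 12 had a neighbour in the set (63.2%), beside 31 of all 68 plastid genes with one (45.6%). The 68 include the 19, the numbers are small, and nothing particular to the top set is read from them. The 7 adjacent pairs were psbK with psbI, psbC with psbZ, ndhC with atpE, atpE with atpB, psbF with psbE, rps3 with rpl22, and rpl22 with rps19. In the nucleus 7 of 245 top-set genes had a neighbour in the set (2.86%), near the 3.68% of all 8833 nuclear genes with a measured neighbour. The 4 nuclear pairs were AT1G29660 with AT1G29670, AT2G27710 with AT2G27720, AT2G27720 with AT2G27730, and AT3G02080 with MPPBETA.

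Probe sets for genes of the mitochondrial genome had lower median ranks than the plastid-encoded genes. None of 18 probe sets for 11 mitochondrial genes was in the top set, beside 4.17% of all probe sets, which is no result about them. Their median percentile rank was 24.5, 42.9 and 43.0 in replicates 1, 2 and 3. That median counts every probe set, with several for some genes. The highest was cox2, a cytochrome oxidase subunit, with percentile ranks of 45.2, 62.0 and 62.5. The gene nad1, a complex I subunit, had 7 probe sets, whose percentile ranks ran between 0.0835 and 52.5 over the 3 arrays. The rank of this gene therefore depended on the probe set read.

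The same was seen over the 144 loci with more than 1 named probe set. Their lowest and highest probe sets lay a median of 19.5 percentile points apart (quartiles 9.61 and 31.1), and 58 loci differed by at least 25 points. The closest pair was that of AT1G22330, with mean percentile ranks of 55.1 and 55.2, followed by AT1G79150, with 70.1 and 70.7, and by SDRB, a short-chain dehydrogenase, with 90.5 and 91.5. The widest was SDH2-1, an iron-sulfur subunit of mitochondrial succinate dehydrogenase. One of its probe sets had log2 signals of 10.41, 9.14 and 9.30, the other 2.00, 2.14 and 2.17. AT4G01290 and AT3G50590 had gaps of 68.6 and 68.4 points. Of the 2 such loci with a probe set whose mean rank was above 95, AT4G16980 and AT5G24690, neither had both of them there.

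Genes on either side of the limit of the top set had like signals. Just inside, PRXIIF stood at percentile ranks of 96.66, 95.001 and 95.65, with log2 signals of 11.47, 10.27 and 10.52. Just outside, AT3G23600 stood at 97.35, 95.07 and 94.99, with 11.78, 10.29 and 10.32. In replicate 1 the limit ran between AT5G41670, inside with 10.86, and THX, outside with 10.85. Altogether 149 probe sets were in the top 5% of replicate 1 only, 139 in that of replicates 2 and 3 only and 102 in other combinations.

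Named loci in the top 5% of replicate 1 only numbered 71, and none of them was plastid-encoded. Those in the top 5% of replicates 2 and 3 only numbered 69, of which 18 were plastid-encoded. Plastid-encoded genes were 69 of all 13286 named loci, so that none among the 71 is no result. The replicate 1 group included PYK10, a beta-glucosidase of ER bodies that is most abundant in roots, with log2 signals of 12.26, 8.58 and 8.81. It also held the plant defensins PDF1.2 (11.10, 9.01 and 9.25) and PDF1.2b (12.88, 10.08 and 9.58), the jacalin-related lectin JAL34 (10.91, 8.58 and 8.64) and YLS5, of the leaf-yellowing series (11.30, 7.77 and 8.02). The PDF1.2b probe set is of a kind that can bind several transcripts. That replicate 1 was the highest array for these genes follows from the way they were chosen.

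Large families were formed by gene symbol, and the 1466 nuclear loci with a symbol had a median percentile rank of 56.9, against 44.7 over all named loci. Of the 14 families, 13 had a median below 56.9. Ubiquitin-conjugating enzymes were the exception, with a median of 84.2 over 12 genes and 10 above 56.9. In the top set was 1 of the 12, UBC28, beside 4.23% of nuclear loci with a symbol, and no result is read from 1 gene. Ubiquitin-specific proteases, which remove ubiquitin, had a median of 55.1 over 12 genes, and basic leucine zipper transcription factors 51.5 over 14. UDP-glycosyltransferases (47 genes, median 43.8), IQ-domain proteins (15, 42.9), TRICHOME BIREFRINGENCE-LIKE proteins (22, 41.1), and genes with CYP symbols (26, 40.9) were more than 10 points below 56.9. BGLU symbols, of beta-glucosidases (20, 39.5), TRM symbols (15, 36.5) and serine carboxypeptidase-like proteins (29, 35.3) were lower still.

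The lowest families were AGAMOUS-like MADS-box factors (40 genes, median 27.0), genes with GH symbols (19, 22.9), SWEET sugar transporters (14, 21.9) and tetraspanins (15, 19.8). Several held single high members among low ones. In the SWEET family SWEET11 was at 97.9, 96.9 and 97.1 and SWEET17, a vacuolar fructose carrier, at 84.3, 84.6 and 84.4, while 9 of 14 had a mean rank under 40. Among genes with a BGLU symbol BGLU44 was at 98.2, 97.3 and 97.2, and the next, BGLU33, at 84.0, 78.3 and 78.9. PYK10, a beta-glucosidase whose symbol lies outside that family, ranked above BGLU33 on every array, with 98.3, 85.9 and 87.3. Among MADS-box factors AGL26 was the highest by its brighter probe set, at 88.5, 90.9 and 91.1, but its other probe set was at 30.9, 36.1 and 36.6. The next was AGL87, at 69.7, 83.2 and 83.8, and 4 of the 40 had a mean rank above 56.9. AGL30 was the lowest of them, at 4.27, 4.81 and 4.93.

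**Figure D3:**
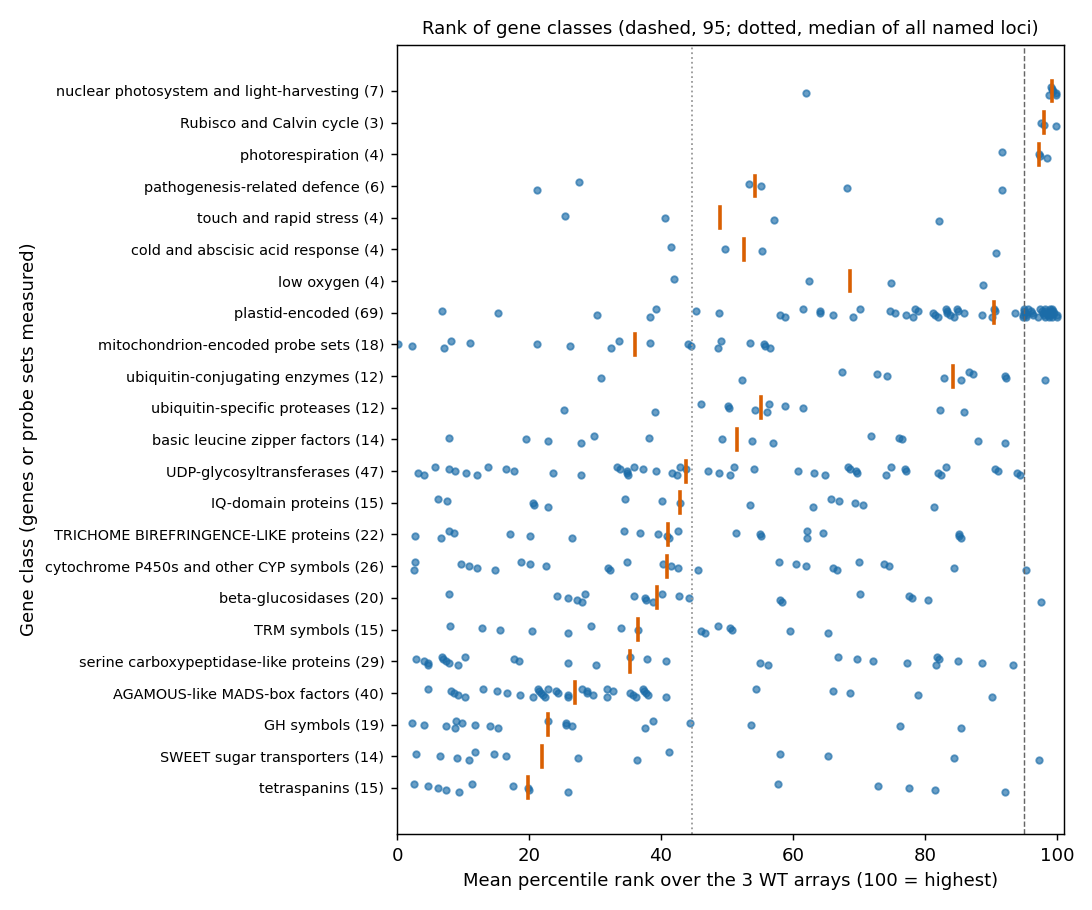
Mean percentile rank over the 3 WT arrays (horizontal axis, 100 is highest) of each measured gene of 23 classes (vertical axis, with the number measured), as points, with the class median as an orange bar. The photosynthesis classes lie beyond the dashed line at 95 except for LHCB4.3 and AT1G80380, the plastid genes reach from 6.86 to 99.97, and most family medians lie near or below the dotted median of all named loci at 44.7.

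Stress and defence lists were measured through few genes, 6 pathogenesis-related genes and 4 each for rapid stress, for cold or abscisic acid and for low oxygen. None of these was in the top set, which is no result about the lists beside the 2.59% of all named loci that were. Within the defence list PDF1.2 ranked highest. THI2.1, a thionin, had percentile ranks of 74.6, 65.3 and 64.4, and GRX480, a glutaredoxin of the salicylic acid response, 50.6, 59.2 and 55.4. Among rapid stress genes STZ, a zinc finger repressor, had log2 signals of 10.04, 7.61 and 7.67 and WRKY53 had 7.96, 4.28 and 4.29. Both were brighter in replicate 1, which lay beyond the spread of replicates 2 and 3. The ubiquitin ligase genes PUB23 and PUB22 were lower and likewise brighter there, with percentile ranks of 57.0, 33.2 and 31.6, and of 38.5, 19.4 and 18.3.

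The cold-regulated gene COR47, a dehydrin, had percentile ranks of 93.2, 89.2 and 90.14. COR15A and COR15B, chloroplast-protecting proteins, went the other way, with 40.9, 54.6 and 53.9, and with 40.9, 62.8 and 62.3. LTI30 had 34.5, 44.5 and 45.4. Of the low oxygen list PDC2, pyruvate decarboxylase of ethanol fermentation, had 88.8, 88.3 and 89.3 on all 3 arrays alike, and AT4G10270 had 56.0, 83.3 and 85.4. AT4G17260 had 64.9, 60.5 and 62.0, and AT3G10040 39.3, 43.7 and 42.9. Single genes of other lists were GI, of the circadian clock (62.8, 69.3 and 69.3), OPCL1, of jasmonate synthesis (89.0, 84.3 and 80.1), and BCAT4, of methionine-derived glucosinolates (92.2, 93.4 and 92.2).

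Of 15 listed common reference genes only 4 had a named probe set. GAPC2 alone of these was in the top set, beside 2.59% of all named loci, and no result about the list is read from so few genes. PEX4 had percentile ranks of 85.3, 88.1 and 87.9, AT4G34270 82.2, 78.5 and 79.2, and AT2G28390 78.3, 78.8 and 79.0. ACT2 and UBQ10 have no probe set paired with them alone in the tables used here. EBE itself, AT5G61890, was below the median rank on all 3 arrays, with log2 signals of 4.26, 2.98 and 3.02 and percentile ranks of 43.5, 37.2 and 36.9.

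Markers of the labelled tissue and of other cell types were checked where a probe set was named. The mesophyll marker RCA was the only one of 5 measured and was in the top set. Of 9 root markers 3 were measured. EXPA7 and EXPA18, root hair expansins, were near the floor, with log2 signals of 1.75, 2.12 and 2.13, and of 1.85, 1.89 and 1.90, whereas PYK10 was in the top 5% of replicate 1. Root material as a source of the PYK10 signal was not tested. The meristem marker CLV3 was low, with 1.98, 2.07 and 2.09. Of the guard cell markers AT1G22690 had percentile ranks of 95.5, 94.3 and 94.2 and FMA, a stomatal fate factor, 50.3, 51.0 and 50.7. No seed, flower, epidermis or vascular marker had a named probe set, so those cells could not be checked.

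Rank instability was summarised by the span of the percentile ranks over the 3 arrays. The median span was 4.46 points (quartiles 2.14 and 7.90) and the largest 72.4. Spans were widest in the middle of the ranking, with a median of 6.30 points between the 60th and the 70th percentile, and narrow at the top (1.19) and bottom (1.51). Between replicates 2 and 3 alone, the median gap was 0.558 points and 8 probe sets differed by at least 25 points. In the top set, whose definition keeps every span under 5 points, the median was 0.583 and the largest 4.85.

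**Figure D4:**
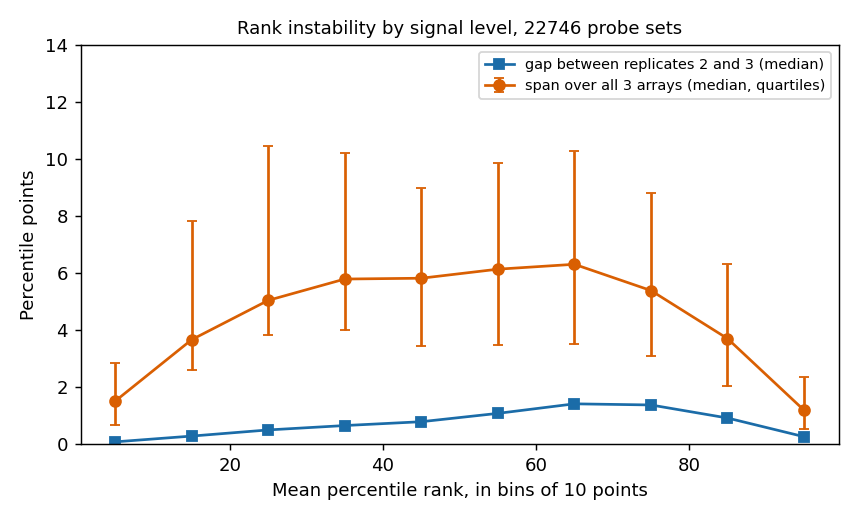
Median span of percentile ranks over the 3 WT arrays with quartiles (orange circles) and median gap between replicates 2 and 3 (blue squares), in percentile points (vertical axis), by bins of 10 points of the mean percentile rank (horizontal axis). The span is highest between the 60th and 70th percentile, at 6.30 points, and the gap between replicates 2 and 3 is at most 1.42 points in any bin.

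A span of at least 50 points was found for 30 probe sets (0.132%), and replicate 1 was the highest array in 27 and the lowest in 3. A span of at least 25 points was found for 548 (2.41%), with replicate 1 highest in 436 and lowest in 106. Without replicate 1 no probe set reached 50 points. In the lowest 25% of each array the log2 signals lie close together, under 2.64, 2.54 and 2.57 in replicates 1, 2 and 3, so that a small change there moves a rank by many points.

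The 8 named genes with the largest rise in replicate 1, among those in the top 25% of at least 1 array, were AT3G18250, AT1G26380, OSM34, AT1G26420, AT3G29970, AT5G44380, AT3G13950 and AT2G43590. AT3G18250 had log2 signals of 8.65, 2.23 and 2.24 and AT1G26380 had 9.50, 2.61 and 2.64. OSM34, an osmotin-like protein of the pathogenesis-related group, had 10.02, 2.84 and 2.90. These genes were near the floor in replicates 2 and 3 and moderately to strongly bright in replicate 1. The other 5 had between 8.59 and 10.54 in replicate 1 and between 2.76 and 5.87 in replicates 2 and 3.

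The 8 with the largest drop were AT5G16980, AT2G47890, OCT5, an organic cation transporter, and the plastid genes ycf3, atpH, rps16, atpI and accD. AT5G16980 had 3.89 in replicate 1 against 8.62 and 8.50, and AT2G47890 had 3.32 against 7.61 and 8.01. The gene ycf3, an assembly factor of photosystem I, had 5.69 against 9.74 and 9.72. The plastid genes accD, of fatty acid synthesis, and rps16, of the small ribosomal subunit, had 5.73 against 8.72 and 8.55, and 5.53 against 8.84 and 8.94. All 5 plastid genes had entered by their ranks in replicates 2 and 3.

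Nuclear genes with a symbol allow the roles of the unstable genes to be named. After the ranks were seen, all 36 of 1466 with a span of at least 25 points were taken (2.46%), a share near the 2.13% of all named loci. Replicate 1 was the highest array for 29 of them and the lowest for 7, beside 436 and 106 of all 548 probe sets with such a span. Peroxidases, chitinases and a gene of lignin synthesis were among the 29. Others of the 29, such as EULS3, Hsp70-2, LUL4 and PRAF1, are not described here, so no theme is read from the named ones. PRX52, a class III peroxidase, had log2 signals of 7.99, 2.09 and 2.11. ChiC, a class V chitinase, had 7.14, 2.14 and 2.13, and CHI, a further chitinase, 9.71, 5.54 and 6.05. Prx37, a peroxidase, had 10.26, 6.02 and 6.37, and CCR2, cinnamoyl-CoA reductase of lignin synthesis, 5.64, 2.19 and 2.22.

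Signalling and transport genes were also in this group. WES1 (GH3.5), which conjugates auxin to amino acids, had 6.49, 2.07 and 2.07, and CML41, a calmodulin-like protein, 8.70, 4.86 and 4.95. BHLH101, a regulator of iron uptake, had 4.89, 2.24 and 2.29, and THI2.2, a thionin, 3.973, 2.178 and 2.196. In the defence list OSM34, ChiC and THI2.2 were at least 25 points higher in replicate 1, that is 3 of 6, beside 1.42% of all named loci. The list was chosen with earlier results of these data known, so no result about it is read from this count. For THI2.2 the rise started from signals close to the floor in replicates 2 and 3. For SWEET13, a sucrose exporter, the same span of ranks rested on a small change of signal, with 3.14, 2.00 and 2.03.

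The 7 for which replicate 1 was lowest were OCT5, SNZ, HYH, UGT73C1, UF3GT, CXE18 and GIS. HYH, the bZIP homolog of the light-signalling factor HY5, had log2 signals of 5.61 in replicate 1 against 8.01 and 7.98. UGT73C1, a glycosyltransferase, had 4.01 against 7.12 and 6.70. SNZ, an AP2-type repressor of flowering, had 2.18 against 3.30 and 3.31, and UF3GT, of anthocyanin synthesis, 2.08 against 2.86 and 2.88. HYH and UGT73C1 thus differed well above the floor, and SNZ and UF3GT close to it.

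**Figure D5:**
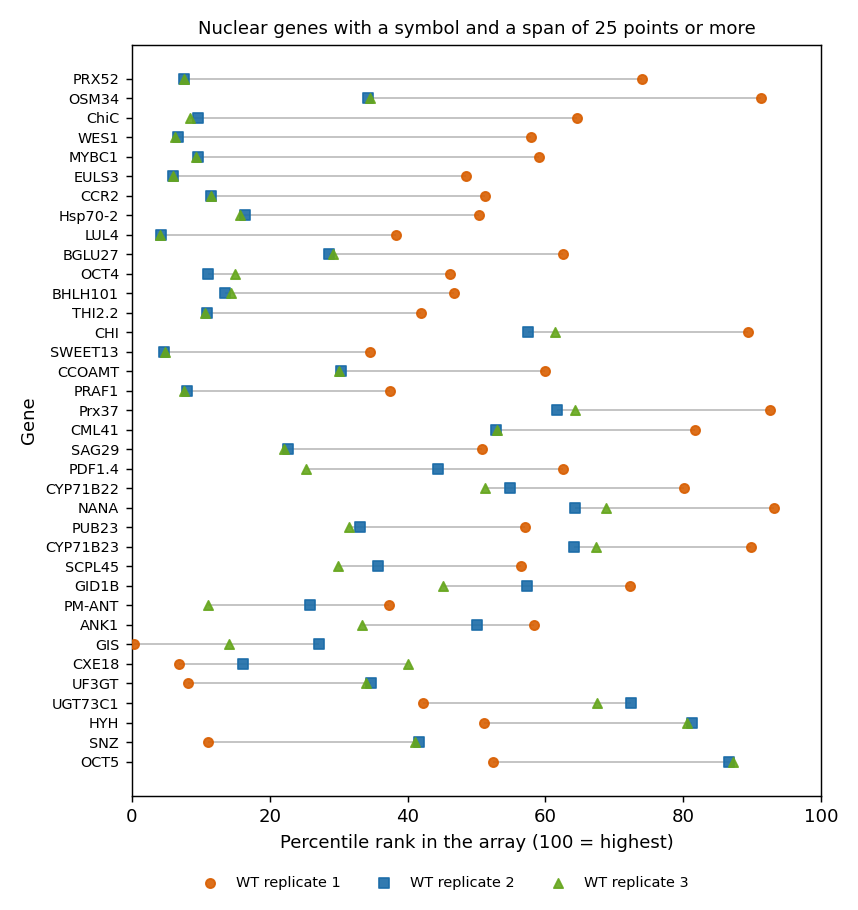
Percentile rank (horizontal axis, 100 is highest) on each WT array of the 36 nuclear genes with a symbol and a span of at least 25 points (vertical axis, ordered by replicate 1 minus the mean of replicates 2 and 3), with grey lines over the range. Replicates 2 and 3 lie within 5 points of each other for 29 of the 36, and PDF1.4, GID1B, PM-ANT, ANK1, GIS and CXE18 are among those where they do not.

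Between replicates 2 and 3 few genes moved. Among named genes in the top 25% of at least 1 array, the largest gap was that of AT2G30600, with percentile ranks of 66.5 and 54.6, and 81.4 in replicate 1. BIK1, a receptor-like cytoplasmic kinase of immune signalling, had 79.1 and 70.6, and 76.8 in replicate 1. The next 8 were AT1G31850, AT1G15290, AT5G38520, AT5G65470, AT4G20860, AT1G18360, AT2G35450 and AT5G64420, and their gaps were smaller than that of BIK1.

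Within the top set the steadiest named genes after quantile normalization were CHLM, AT3G54210, AT3G11630, AT3G02560 and GAPC2, with SDs between 0.0081 and 0.0258 log2 (n = 3). The most variable were ndhI, rpl33, rpl32, FDH and petB. The plastid gene ndhI, of the NADH dehydrogenase-like complex, had deposited log2 signals of 11.14 in replicate 1 against 13.28 and 12.98. The ribosomal protein genes rpl33 and rpl32 had 11.24 against 12.74 and 12.37, and 11.30 against 12.40 and 12.73, and petB, of cytochrome b6f, 12.23 against 12.94 and 12.98. All 4 plastid genes were lowest in replicate 1, and FDH was highest there.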

How the data were processed

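Total RNA of shoots was labelled with biotin and hybridised to Affymetrix ATH1 arrays, per the labels' protocols. The authors deposited 1 log2 signal per probe set and array. Per the submitters' processing notes GCRMA and RMA were used, in roles not stated, the log base was read from the values, and the number of arrays limits the precision. The 3 columns of other samples were not used.

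Ranks were computed within each array in Python 3.11.15 with pandas 2.3.3, numpy 2.4.6 and scipy 1.17.1, ties averaged, with no further normalization. Quantile normalization served only the SDs named as such. Probe sets were named from the platform annotation and a TAIR10.1 gene table, used for names and gene order: 13513 had 1 symbol, 503 several and 8730 none, and 13436 matched 13286 loci. A locus with several probe sets is given by that of the highest mean signal. Titles call the replicates biological. The data hold 1 group, so no test was made and no p-value is given. The ranking was tested on simulated data.

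Named genes are the 20 highest; the 8 largest rises and drops in replicate 1 and the 10 largest gaps between replicates 2 and 3, in the top 25% of an array; the 5 steadiest and 5 most variable of the top set; up to 4 highest and the lowest of each list; EBE, reference and marker genes; and the widest and closest probe set pairs. Families, roles and unstable genes with a symbol were named after their values were seen. The members and lists were chosen with earlier results of these data known. Leaving out arrays, other limits, probe set filters and the retention of controls were tried.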

Additional observations from a re-analysis of the deposited data

How the results depend on the processing

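The share of probe sets in the top set, 4.17%, ranged between 4.25% and 4.78% when each array in turn was left out, the highest value being without replicate 1. Because the top set asks for a high rank on every array, leaving 1 out can only keep or raise a share in it. The share of probe sets was 5.003% by the mean percentile rank, 8.25% for a top 10% and 0.712% for a top 1%, as a wider or narrower limit must make it. The share with an unstable rank, 0.132%, can only stay or fall when an array is left out. It ranged between 0 and 0.127% without each array in turn, with 0 without replicate 1. By the range of log2 signal of at least 2 in place of rank it was 3.58% after quantile normalization and 6.45% as deposited, and with dim probe sets left out 0.623%; the cause was not tested. A span of 25 points, chosen after seeing the data, gave 2.41%. The share of plastid-encoded genes in the top set, 29.0%, was 55.1% without replicate 1 and 29.0% without either of the others. The share of the nuclear photosystem genes was 85.7% under each alternative run for it. That of ubiquitin-conjugating enzymes, 1 of 12 (8.33%), was the same under each but a top 10%, which gave 25%. That 25% is 3 of 12 genes, beside 134 of 1466 nuclear loci with a symbol. For 11 named genes, 48 of 55 mean ranks under an alternative were within 1 SD of the main value, and the 7 others moved when only probe sets paired with 1 gene were ranked. No paired analysis was possible because the arrays form 1 group. Protein length and promoter motifs of the top set were not run, since no sequences were used here.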
